A study of Homo sapiens with 3 samples.

Results

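The genes described here are 10 homeobox transcription factor genes that give neural tissue its position along the body axis: the Iroquois genes IRX1, IRX2, IRX3 and IRX5, the Engrailed genes EN1 and EN2, GBX2, and the TALE cofactor genes MEIS1, MEIS2 and PBX3. They were chosen by name, and every probe set annotated to just 1 of these symbols was taken, which gave 12 probe sets for 10 of the 19775 genes on the array. IRX2 and MEIS1 had 2 probe sets each and the other genes 1. Cultures of H9, an established human embryonic stem cell line, were profiled on 3 Affymetrix arrays, with 1 array per group. The groups were neuroepithelial cells at day 17, which had received no morphogen, astrocytes at day 210 specified with retinoic acid (RA), and astrocytes at day 210 specified with FGF8, each morphogen being applied between days 10 and 21. All 3 groups came from the same line through embryoid bodies, and the labels name no separate differentiations. With 1 array per group there is no replicate error, no test and no p-value. Differences are given by size, and the number of arrays limits their precision.

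Iroquois proteins are homeodomain factors of the TALE class that set up territories in the diencephalon, hindbrain and spinal cord, in part by mutual repression with factors such as SIX3 and OLIG2. EN1 and EN2 mark the midbrain and anterior hindbrain. GBX2 marks the anterior hindbrain and opposes OTX2, the midbrain and forebrain factor, where the isthmic organiser forms between them. MEIS and PBX proteins bind DNA together with HOX proteins and are their cofactors in the hindbrain, where retinoic acid is a known inducer of HOX genes. MEIS2 and PBX3 are also expressed in the developing ventral forebrain.

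To show the start regions of genes that were higher in RA than in FGF8 astrocytes together, the 250 bases before the RefSeq start site (GRCh38.p14) are printed for IRX1, at chr5:3595582-3595831 on the forward strand, GBX2, at chr2:236168387-236168636 on the reverse strand, and MEIS1, at chr2:66434875-66435124 on the forward strand. IRX2, the protein-coding neighbour of IRX1 that lay within 2-fold in each comparison, is printed beside them for contrast (chr5:2751678-2751927, reverse strand). Sequences run 5′ to 3′ towards the start site, and capitals mark CpG dinucleotides.
IRX1: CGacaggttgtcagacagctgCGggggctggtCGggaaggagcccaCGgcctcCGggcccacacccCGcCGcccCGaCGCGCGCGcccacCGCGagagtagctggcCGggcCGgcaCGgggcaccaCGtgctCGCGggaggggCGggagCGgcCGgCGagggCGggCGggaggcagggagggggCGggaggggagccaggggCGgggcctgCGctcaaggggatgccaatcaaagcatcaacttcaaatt
IRX2: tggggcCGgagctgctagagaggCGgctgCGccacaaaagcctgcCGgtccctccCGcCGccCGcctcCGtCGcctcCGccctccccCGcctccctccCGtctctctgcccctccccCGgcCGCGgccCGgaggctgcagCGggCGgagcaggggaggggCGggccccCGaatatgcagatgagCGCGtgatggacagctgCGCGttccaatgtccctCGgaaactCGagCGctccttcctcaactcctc
GBX2: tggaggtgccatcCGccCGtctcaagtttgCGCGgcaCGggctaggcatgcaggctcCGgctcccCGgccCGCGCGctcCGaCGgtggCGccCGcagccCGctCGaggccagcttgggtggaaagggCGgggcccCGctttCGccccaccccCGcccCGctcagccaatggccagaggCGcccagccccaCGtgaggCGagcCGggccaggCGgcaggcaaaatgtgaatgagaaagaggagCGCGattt
MEIS1: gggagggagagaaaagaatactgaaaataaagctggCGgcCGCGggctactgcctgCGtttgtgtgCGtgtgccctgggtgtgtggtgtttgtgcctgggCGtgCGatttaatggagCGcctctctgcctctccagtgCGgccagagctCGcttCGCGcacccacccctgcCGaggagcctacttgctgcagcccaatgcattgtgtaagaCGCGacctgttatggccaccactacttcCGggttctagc

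Of the 10 genes, 7 had an entry in the promoter table, with 8 windows in all. IRX3, IRX5 and EN1 had none. The IRX1 window held 29 CpG dinucleotides at 75.2% GC, the IRX2 window 27 at 72.8%, the GBX2 window 28 at 72.0% and the MEIS1 window 16 at 59.6%, where the median of 35116 windows of this length was 11 at 58.0%. The motifs searched on both strands were the MEIS core TGACAG, the PBX-HOX composite TGATNNAT, the homeodomain core TAATTA, the nuclear receptor half-site AGGTCA and the Iroquois site ACANNTGT. None of these letters occurred in the 4 printed windows. Among the other windows of the listed genes, PBX3 held 1 MEIS core, with its first base 20 bases before the start site, and 1 of the MEIS2 windows held 1 PBX-HOX composite, 64 bases before the start site. Across all windows the motifs occurred in 13.0%, 6.47%, 4.35%, 12.1% and 4.71%, in the order given.

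Whole-array measures were as follows. Values are normalized intensities, made comparable across the arrays by quantile normalization of the deposited values, and the floor is their overall median, an intensity of 26.4 or 4.72 on the log2 scale. A difference with 1 side at or below the floor is a lower bound of the size, written "at least", and a gene at or below it on both arrays has no difference. Hybridisation spike-ins, transcripts added at a fixed amount, were 2.62-fold brighter on the RA array than on the neuroepithelial array and 2.40-fold brighter than on the FGF8 array (18 probe sets). The ratio of the 3′ to the 5′ signal of ACTB, a measure of transcript length after labelling, was 1.33 on the neuroepithelial array, 6.67 on the RA array and 6.63 on the FGF8 array. For GAPDH the same ratio rose less, at 0.984, 1.79 and 1.65. All 8 astrocyte markers lay above the floor on both astrocyte arrays, with summed normalized intensities of 38947 (RA) and 32569 (FGF8) against 1830 on the neuroepithelial array, where GFAP, S100B and AQP4 lay at or below the floor. ALDH1L1 lay within 2-fold, at 38.0 in neuroepithelial cells, 45.5 in RA and 43.4 in FGF8 astrocytes, and 7 markers were at least 2-fold higher on each astrocyte array. All 6 neuroepithelial markers lay above the floor on the neuroepithelial array, and 5, all but LIN28A, on each astrocyte array. Their sums were 20288, 14459 (RA) and 14857 (FGF8). Against neuroepithelial cells 4 were at least 2-fold lower and 1 higher after RA, and 3 lower and 0 higher after FGF8.

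**Figure D1:**
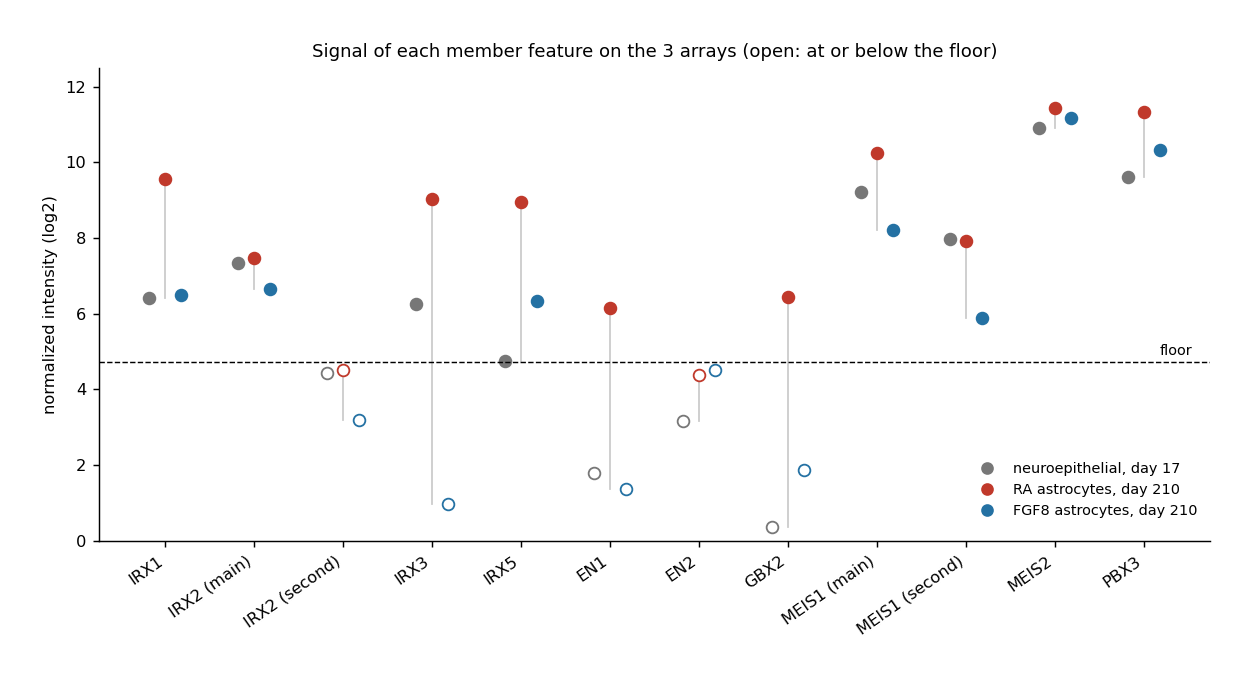
Normalized intensity (log2, vertical axis) of the 12 probe sets of the 10 genes on the neuroepithelial, RA and FGF8 arrays, 1 point per array, with the floor at 4.72 as a dashed line and open points at or below it; "main" and "second" name the 2 probe sets of IRX2 and MEIS1. On the main probe set the RA point is the highest for each gene but EN2, whose points all lie below the floor; on the second MEIS1 probe set the neuroepithelial point is the highest.

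IRX1, IRX3 and IRX5 were each past 4-fold in both comparisons that involve RA astrocytes. IRX1 had a normalized intensity of 84.9 in neuroepithelial cells, 753 in RA astrocytes and 89.5 in FGF8 astrocytes. The RA array was thus the single high one: IRX1 was 8.87-fold higher than in neuroepithelial cells and 8.41-fold higher than in FGF8 astrocytes, while the FGF8 and neuroepithelial arrays differed by 0.08 on the log2 scale, a value that was -0.24 with spike-ins set equal. Of the 12958 genes compared between the astrocyte arrays, 0.864% had a difference, or a bound set by the floor, at least as high.

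IRX3, which restricts motor neuron progenitors in the spinal cord, had normalized intensities of 76.5, 522 and 1.94 in neuroepithelial cells, RA astrocytes and FGF8 astrocytes. It was above the floor in neuroepithelial cells and at or below it in FGF8 astrocytes, so the astrocyte arrays lay on opposite sides of the neuroepithelial one. IRX3 was 6.83-fold higher in RA astrocytes than in neuroepithelial cells and at least 2.90-fold lower in FGF8 astrocytes. Between the astrocyte arrays it was at least 19.8-fold higher after RA.

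IRX5, the protein-coding neighbour of IRX3 in the RefSeq gene table, had normalized intensities of 26.8, 494 and 80.7. The neuroepithelial value lay just above the floor, so folds against it are close to bounds. IRX5 was 18.4-fold higher in RA astrocytes and 3.01-fold higher in FGF8 astrocytes than in neuroepithelial cells, and 6.12-fold higher in RA than in FGF8 astrocytes. IRX5 and IRX3 therefore differed from neuroepithelial cells in the same direction after RA and in opposite directions after FGF8.

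IRX2, the neighbour of IRX1, had normalized intensities of 164, 177 and 99.8 on its main probe set. Its RA and neuroepithelial arrays differed by 0.11 on the log2 scale. The FGF8 array was the lowest, 1.64-fold below neuroepithelial cells and 1.77-fold below RA astrocytes, both within 2-fold. With the mean of its probe sets the latter difference was 1.07 on the log2 scale. The second IRX2 probe set lay at or below the floor on all 3 arrays, at 21.3, 22.7 and 9.19, and gives no difference. IRX1 and IRX2, next to each other only in the order of protein-coding genes, thus differed in pattern.

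GBX2 and EN1 were above the floor on the RA array alone. GBX2 had normalized intensities of 1.29 in neuroepithelial cells, 86.3 in RA astrocytes and 3.66 in FGF8 astrocytes, and was at least 3.27-fold higher in RA astrocytes than on either other array. EN1 had normalized intensities of 3.46, 71.4 and 2.57, and was at least 2.71-fold higher in RA astrocytes than on either other array. Both genes could be compared only by being high after RA, so their counts below are fixed in direction by the floor. Values at or below the floor have no order among themselves.

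EN2, the second Engrailed gene, had normalized intensities of 8.97, 20.7 and 23.0, at or below the floor on each array. No difference is given for it with this floor, which is the overall median and not a limit of detection. Without a floor EN2 was 1.21 (RA) and 1.36 (FGF8) above neuroepithelial cells on the log2 scale, and -0.15 between the astrocyte arrays. These differences rest on values below the floor used here. With the 30th percentile floor EN2 entered the comparisons with neuroepithelial cells at a bound past 2-fold, higher on both astrocyte arrays. In bulk RNA, a low value from few cells with the transcript and a low value from little transcript in each cell cannot be told apart, which holds for GBX2 and EN1 as well.

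The HOX cofactor genes were above the floor on all 3 arrays. MEIS1 had normalized intensities of 594 in neuroepithelial cells, 1210 in RA astrocytes and 294 in FGF8 astrocytes on its main probe set. The arrays were ordered RA, neuroepithelial, FGF8, with 2.04-fold between the first pair and 2.02-fold between the second, both just past 2-fold. The second MEIS1 probe set gave 252, 243 and 59.3, where RA and neuroepithelial cells differed by -0.05 on the log2 scale and FGF8 astrocytes were 4.26-fold below neuroepithelial cells. Both probe sets placed RA above FGF8 astrocytes by nearly the same size, 4.11-fold and 4.10-fold, so the level in neuroepithelial cells relative to the astrocytes was the point on which they differed. With the mean of both, MEIS1 lay at 0.49 on the log2 scale in RA astrocytes against neuroepithelial cells, short of 2-fold.

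PBX3, which encodes a partner of both MEIS and HOX proteins, had normalized intensities of 789, 2552 and 1284. The neuroepithelial array was the lowest and the RA array the highest. PBX3 was 3.23-fold higher in RA astrocytes and 1.63-fold higher in FGF8 astrocytes than in neuroepithelial cells. RA exceeded FGF8 astrocytes by 1.99-fold, just short of 2-fold, and by 1.05 on the log2 scale with deposited intensities. With array medians set equal, FGF8 astrocytes were 1.25 above neuroepithelial cells. With spike-ins set equal, PBX3 lay at 0.45 in RA astrocytes against neuroepithelial cells, short of 2-fold.

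MEIS2 had normalized intensities of 1929, 2775 and 2324, with no array more than 1.44-fold from another. With array medians set equal, RA astrocytes were 1.11 above neuroepithelial cells on the log2 scale. It was the member with the smallest range among those above the floor. MEIS1 and MEIS2, closely related proteins, thus differed in how their signals varied between the cultures.

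**Figure D2:**
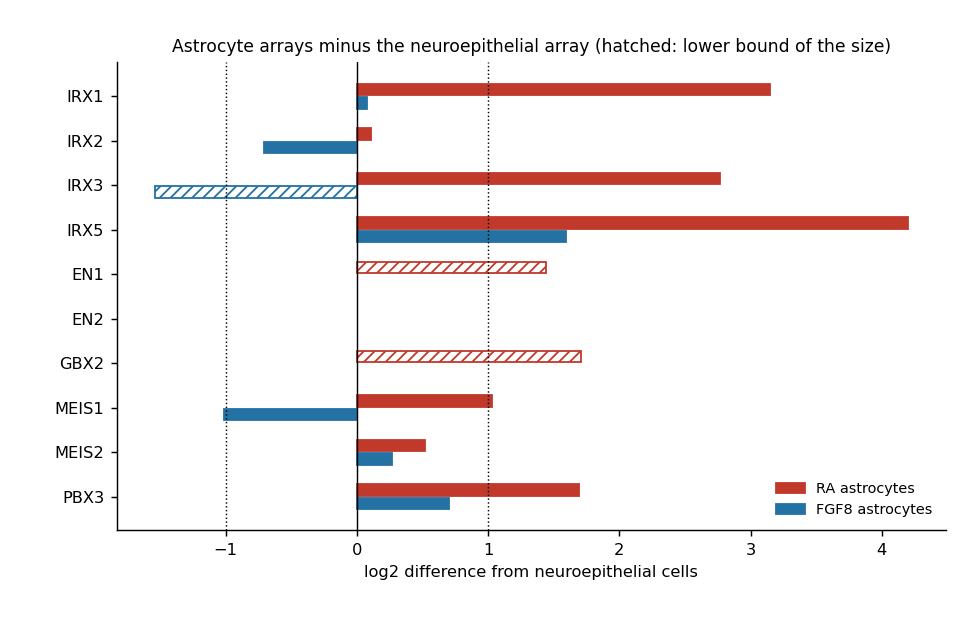
Log2 difference of each gene from the neuroepithelial array (horizontal axis) for RA and FGF8 astrocytes, 1 bar per array pair, with dotted lines at 2-fold and hatched bars for lower bounds; genes without a bar lay at or below the floor on both arrays. RA bars reach 4.20 for IRX5 and 3.15 for IRX1, and IRX3 and MEIS1 have bars on opposite sides of 0.

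The first comparison, RA astrocytes against neuroepithelial cells, asks which regional genes separate the RA culture from the early progenitors. Among 9 genes with a difference, 7 passed 2-fold upwards (IRX1, IRX3, IRX5, EN1, GBX2, MEIS1 and PBX3) and 0 downwards, where 18.1% of the 13339 genes compared were higher and 14.6% lower. The median difference of the 9 genes was 1.69, and that of all genes 0.07. The 2 others, IRX2 and MEIS2, lay within 2-fold and above 0. With the spike-ins of all arrays set equal, which moved the median of all genes to -1.15, IRX1, IRX3 and IRX5 were still at least 2-fold higher (1.64, 1.22 and 2.54), while EN1 (0.37), GBX2 (0.67) and PBX3 (0.45) fell short of 2-fold, MEIS1 lay at -0.28 and IRX2 at -1.39. MEIS2 lay at -0.69 with that scaling. The part of the brighter spike-ins and of the higher ACTB ratio in these differences was not tested.

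The second comparison, FGF8 astrocytes against neuroepithelial cells, asks the same of the FGF8 culture. Here 7 genes could be compared, since EN1, EN2 and GBX2 lay at or below the floor on both arrays. IRX5 was the 1 gene at least 2-fold higher, and IRX3 and MEIS1 were the 2 at least 2-fold lower, where 12.8% of 13004 genes were higher and 10.2% lower. The median of the 7 genes was 0.08, close to the 0.05 of all genes. The higher count is near the background, and both counts are few. MEIS1 at -1.01 lay at the threshold: it was -0.96 with the deposited intensities and -0.50 with array medians set equal. IRX3 entered at its bound, with its direction fixed by the floor. The first 2 comparisons share the neuroepithelial array, so their values are not independent.

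The third comparison, RA against FGF8 astrocytes, asks how the specified astrocytes differ at the same age. Among 9 genes with a difference, 6 exceeded 2-fold in favour of RA astrocytes (IRX1, IRX3, IRX5, EN1, GBX2 and MEIS1) and 0 in favour of FGF8 astrocytes, against 9.69% of 12958 genes higher and 7.86% lower. The median difference was 1.71, and that of all genes 0.01. IRX2 at 0.83, MEIS2 at 0.26 and PBX3 at 0.99 lay within 2-fold, so no gene of the 9 lay below 0. EN1, GBX2 and IRX3 entered at their bounds. Each lay at or below the floor in FGF8 astrocytes, so each could only be higher after RA. With spike-ins set equal, which moved the median of all genes to -1.18, IRX3, IRX1 and IRX5 were at 3.36, 1.88 and 1.41, and EN1, GBX2 and MEIS1 fell short of 2-fold at 0.37, 0.67 and 0.80. IRX2, MEIS2 and PBX3 then lay below 0, at -0.45, -0.90 and -0.21.

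**Figure D3:**
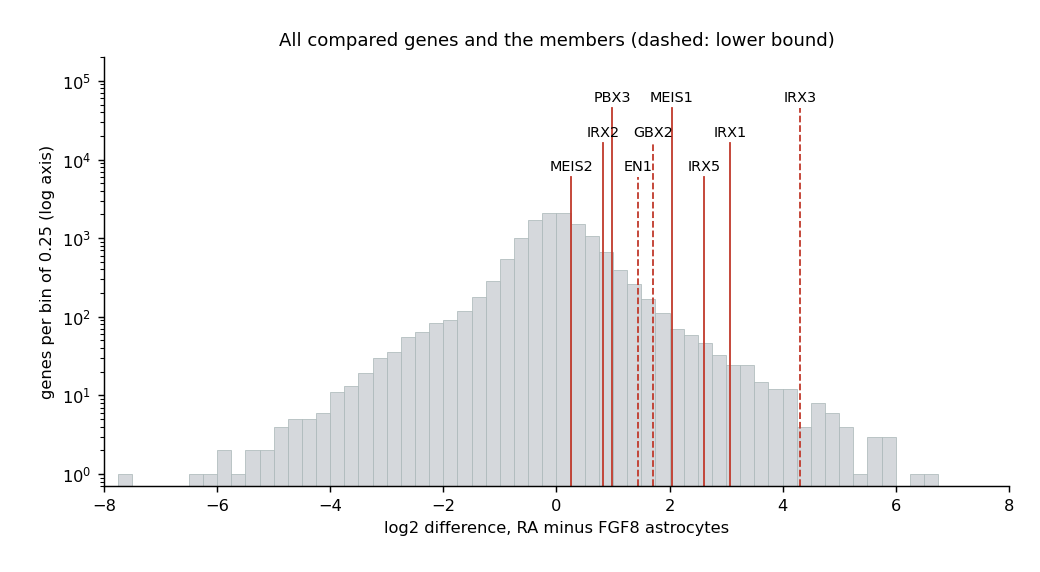
Distribution of the log2 difference between RA and FGF8 astrocytes (horizontal axis) over 12958 genes, counted in bins of 0.25 on a log axis, with a vertical line for each of the 9 genes compared, dashed for lower bounds. All 9 lines lie to the right of 0, from MEIS2 at 0.26 to IRX3 at 4.31, with the direction of the dashed lines fixed by the floor. With spike-ins set equal, MEIS2, IRX2 and PBX3 lie to the left of 0.

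HOX genes of paralogue groups 1 to 4, the partners of the MEIS and PBX proteins, were higher on the same array as MEIS1. Of 8 on the array, 5 could be compared between RA and FGF8 astrocytes, and all 5 were at least 2-fold higher after RA, with a median of 3.80. HOXB3 was at least 40.8-fold higher, HOXB2 at least 15.3-fold and HOXA2 at least 14.0-fold. Each of the 5 lay at or below the floor in FGF8 astrocytes, so the direction was fixed by the floor. Against neuroepithelial cells 5 of 5 were at least 2-fold higher after RA (median 3.62), where 18.1% of all genes were higher. HOXA2, HOXB4 and HOXD4 lay at or below the floor in neuroepithelial cells, which fixed their direction. HOXB2 and HOXB3 were above it on both sides. After FGF8, 2 could be compared: HOXB3 was at least 2.13-fold lower and HOXB2 at least 1.24-fold lower (median -0.70). The floor fixed the direction of both. With spike-ins set equal, 4 of 5 HOX genes were at least 2-fold higher in RA than in FGF8 astrocytes (median 2.85).

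The relatives of the listed TALE genes showed no common direction. Of 7 that could be compared, 1 was higher and 2 lower in RA than in FGF8 astrocytes, with a median of -0.02. With spike-ins set equal that median was -1.15, beside -1.18 for all genes. PKNOX2, a MEIS-related factor, was 1.98 higher on the log2 scale, while PBX4 (-1.35) and TGIF1 (-1.21), a repressor that binds MEIS-like sites, were lower. In RA astrocytes against neuroepithelial cells 0 were higher and 2 lower (median -0.33), with PBX2 at -2.10 and TGIF1 at -1.40. In FGF8 astrocytes 1 was higher and 2 lower (median -0.19, but 0.36 with array medians set equal), with PBX4 at 1.02, PBX2 at -2.25 and PKNOX2 at -1.55. IRX4, which lies near IRX1 and IRX2, was at or below the floor on all 3 arrays.

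Genes of the isthmic organiser, the signalling centre beside which EN1 and GBX2 are first expressed, were in part low in the astrocytes, with 10 of 18 at or below the floor on both astrocyte arrays. FGF8 itself and PAX5 were at or below the floor on all 3 arrays, and PAX2 and WNT1 were above it in neuroepithelial cells alone, at least 3.07-fold and at least 1.08-fold higher there. Of 13 genes compared in RA astrocytes against neuroepithelial cells, 1 was at least 2-fold higher and 6 lower (median -0.79), led by OTX2, 47.1-fold lower, and FGF18, at least 3.90-fold lower. SPRY2, a feedback inhibitor of FGF signalling, was 1.28 higher. FGF17, FGF18, WNT1, PAX2 and SP5 entered the comparisons with neuroepithelial cells only by lying above the floor there, which fixed their direction, and the median after RA is the bound of FGF17. In FGF8 astrocytes 1 was higher and 4 lower (median -0.32), with SPRY4 at 1.27, SPRY1 at -1.41 and OTX2 12.3-fold lower. Between the astrocyte arrays 1 of 8 was higher and 3 lower after RA (median -0.31), with SPRY2 at 1.23, OTX2 at -1.94, ETV5 at -1.49 and DUSP6 at -1.26. With spike-ins set equal no gene of this list was at least 2-fold higher in any of the 3 comparisons. The 8 genes compared between the astrocyte arrays were above the floor on all 3 arrays. Among them PAX8, a paired-box factor of the midbrain-hindbrain boundary, had normalized intensities of 130, 108 and 95.3, and IL17RD, an inhibitor of FGF signalling, of 1566, 1201 and 1383.

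Forebrain genes, among them the partners that oppose IRX3 and GBX2, were lower in both astrocyte arrays. Of 8 compared with neuroepithelial cells, 6 were lower and 0 higher after RA (median -3.60) and 6 lower and 0 higher after FGF8 (median -2.34). Of all genes, 14.6% were lower after RA and 10.2% after FGF8. The 6 lower after FGF8 became 4 with array medians set equal (7.02% of all genes) and 7 with spike-ins set equal (14.3%). SIX3, SIX6, EMX2, OTX1 and HESX1, and after RA also FEZF2, entered only by lying above the floor in neuroepithelial cells, so the floor fixed their direction. The genes measured on both sides were OTX2 and LHX2 (-2.21 after RA, -1.05 after FGF8) and, after FGF8, FEZF2 (-1.12). LHX2 and FEZF2 thus lay just past 2-fold after FGF8. SIX3, at least 38.8-fold lower, and EMX2, at least 55.3-fold lower, were at or below the floor in both. Of 3 compared between the astrocyte arrays all 3 were lower after RA, where 7.86% of all genes were lower. FEZF2, a forebrain factor that opposes Iroquois genes, was lower by at least 5.78-fold, OTX2 by 3.83-fold and LHX2 by 2.24-fold. IRX1, IRX3 and GBX2 were higher on the same array, while in FGF8 astrocytes SIX3, IRX3 and GBX2 all lay at or below the floor. A relation between these genes was not tested.

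**Figure D4:**
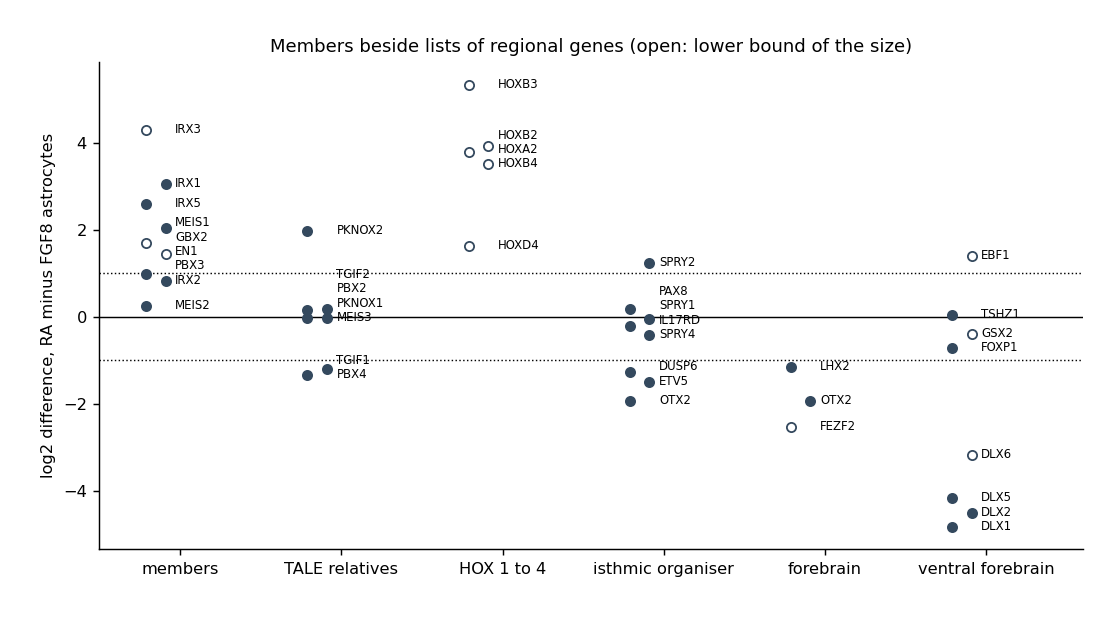
Log2 difference between RA and FGF8 astrocytes (vertical axis) for the listed genes and for 5 lists of regional genes, 1 point per gene that could be compared, open for lower bounds of the size, with dotted lines at 2-fold. The 9 listed genes and the 5 HOX genes all lie above 0 (MEIS2, IRX2 and PBX3 below it with spike-ins set equal). The 3 forebrain genes lie below 0, and DLX1, DLX2, DLX5 and DLX6 lie lowest. The direction of open points was fixed by the floor.

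In the ventral forebrain list, named for a region where MEIS2 and PBX3 are also expressed, the DLX genes differed between the astrocyte arrays. Of 8 genes compared, 4 were lower and 1 higher after RA than after FGF8 (median -1.95), where 7.86% of all genes were lower and 9.69% higher. The lower genes were DLX1 at -4.84, DLX2 at -4.51, DLX5 at -4.18 and DLX6, at least 9.07-fold lower, and EBF1 was at least 1.40 higher. GSX2, FOXP1 and TSHZ1 did not pass 2-fold. Against neuroepithelial cells 7 of 10 were lower and 1 higher after RA (median -1.27), with TSHZ1 at 1.95 and ISL1 at least 3.19 lower on the log2 scale. After FGF8, 5 were higher and 4 lower (median 0.68), with DLX1 at 3.32, DLX2 at 3.19 and DLX6 at 2.76, and with ISL1 at least 3.19 lower. ISL1 and FOXP2, after RA also GSX2 and DLX6, and after FGF8 also EBF1, entered only by lying above the floor in neuroepithelial cells, which fixed their direction. MEIS2 differed by 0.26 between the astrocyte arrays beside these differences.

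Genes that divide the neural tube from back to belly were read beside IRX3. OLIG2, its counterpart in the ventral spinal cord, lay within 2-fold throughout: 0.10 in RA astrocytes and 0.82 in FGF8 astrocytes against neuroepithelial cells, and -0.72 between them. PAX3 and PAX7, dorsal factors, were at least 24.8-fold and at least 13.2-fold higher in RA than in FGF8 astrocytes. In all, 2 of 5 were higher and 0 lower in that comparison (median 0.21, and 1.95 over 4 genes with deposited intensities), 2 of 5 higher and 2 lower in RA astrocytes against neuroepithelial cells (median 0.10), and 0 of 6 higher and 3 lower in FGF8 astrocytes (median -0.997). The small medians turned negative with spike-ins set equal, at -0.16 between the astrocyte arrays and -1.62 in RA astrocytes against neuroepithelial cells, and the latter was -0.24 with deposited intensities. PAX3, PAX7 and MSX1 each had a side at or below the floor in FGF8 astrocytes, so their values there are bounds.

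Markers of cells that carry EN1 or EN2 elsewhere were low. Of 9 midbrain dopamine neuron genes, TH, LMX1A, LMX1B, FOXA2, PITX3, NR4A2 and SLC18A2 lay at or below the floor on all 3 arrays, and SLC6A3 and DDC, the 2 that could be compared with neuroepithelial cells, had no difference or bound past 2-fold. All 6 rhombomere and cerebellar genes on the array, such as ATOH1, PHOX2A and LBX1, were at or below the floor on all 3 arrays. EN1 was above the floor in RA astrocytes beside these values.

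Markers of other cells also differed between the arrays. Of 8 mesenchyme markers, 8 lay above the floor in neuroepithelial cells, 2 in RA astrocytes and 4 in FGF8 astrocytes, with summed normalized intensities of 9116, 153 and 790. Of 8 neuron markers 8, 6 and 6 lay above it, with sums of 16486, 14327 and 19352, and RBFOX3 was at or below it in both astrocyte arrays. DCX, a marker of young neurons, had normalized intensities of 2058, 583 and 6738, SYT1, a synaptic vesicle protein, of 631, 2060 and 405, and MAP2, a dendrite protein, of 2650, 3399 and 5756. Neuron markers thus differed between the astrocyte arrays in both directions, with 2 of 7 higher and 3 lower after RA. Neural crest markers summed to 391, 353 and 368, with 4, 2 and 2 of 6 above the floor. SOX10 and FOXD3, which define the crest, were at or below it in both astrocyte arrays, while TFAP2B was 2.57 higher in RA than in FGF8 astrocytes and ERBB3, which glia also express, at least 11.6-fold lower. Endoderm markers summed to 2659, 117 and 121, with SOX17, FOXA1, FOXA2 and GATA6 at or below the floor throughout. The neuroepithelial sum came mostly from KRT18, AFP and EPCAM, with normalized intensities of 1587, 679 and 334 there. KRT18 and EPCAM were at or below the floor in both astrocyte arrays. AFP was 20.3-fold lower after RA and 20.6-fold lower after FGF8 than in neuroepithelial cells. GATA4 was above the floor on the astrocyte arrays alone, with no bound past 2-fold. The part of these cells in the values of the 10 genes was not tested.

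For the 4 genes with the largest range after values below the floor were set to it, which limits the ranges of GBX2 and EN1, the genes with the most similar pattern over the 3 arrays were found by the distance between log2 profiles, each centred on its own mean. With 3 arrays many genes come close, so this is a description of the profiles alone. The nearest to IRX3, among 378 genes at or below the floor on the FGF8 array alone, was PAX3, at a distance of 0.27, followed by LINC02893 (0.61) and MAP7 (0.62), and PAX3 was the 1 gene within 0.5. For IRX5 the nearest of 10309 genes were PCSK1N (0.09), SUSD1 (0.16) and SYNC (0.19), with 19 genes within 0.5. For IRX1 they were CTSO (0.17), ATN1 (0.18) and GNG12 (0.20), with 17 within 0.5. For MEIS1 they were C6orf141 (0.07), SLC22A5 (0.07) and LIMK2 (0.09), with 94 within 0.5.

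**Figure D5:**
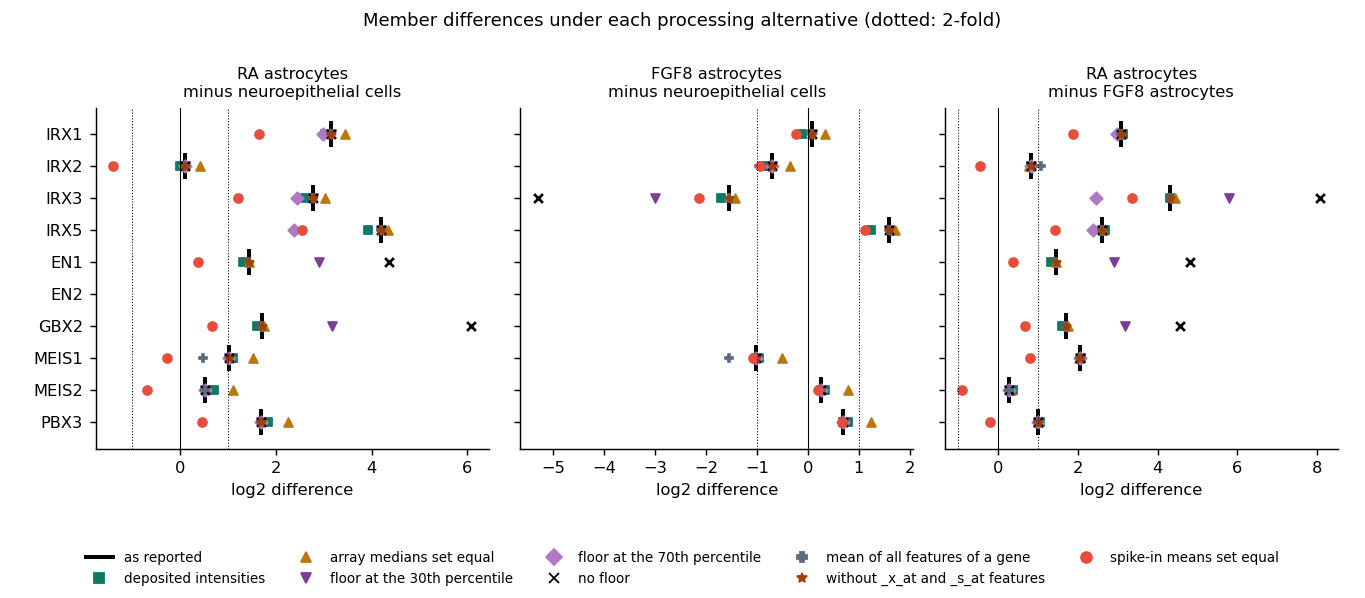
Log2 difference of each gene (horizontal axes) in the 3 comparisons, with the reported value as a black bar and 1 marker for each other way of processing the arrays; dotted lines mark 2-fold. IRX1, IRX3 and IRX5 stay to the right of 1 in both comparisons that involve RA astrocytes, and the widest spreads belong to IRX3, EN1 and GBX2, whose low values lie at or below the floor.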

How the data were processed

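Total RNA, taken with Trizol and a column cleanup, was labelled with biotin at a core facility, per the labels' protocols. The deposited values are linear intensities for 54675 probe sets per array; their mean without the lowest and highest 2% is 150.0 on each array, so the authors or the facility scaled each array. The algorithm that made the signals is not stated in the labels. The 54613 non-control probe sets were quantile normalized (Python 3.11.15, numpy 2.4.6, pandas 2.3.3), taken to log2 and floored at the median. For genes with several probe sets the brightest on average stood for the gene, with _x_at types used only where no other existed. Genes were called at 2-fold, and code was tested on simulated data.

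The genes, lists and rules were chosen with earlier results of these data known. The text names all members and up to 3 genes per direction of a list, plus OTX2, FGF8, PAX2, PAX5, WNT1, HOXB3 and OLIG2; IRX4, PHOX2A, LBX1, RBFOX3, PAX8, IL17RD and others outside this rule were named after their values were seen. Alternatives were the deposited intensities, equal medians, other floors (30th and 70th percentile, none), means of probe sets, leaving out _x_at and _s_at types, and sizes of 1.5-fold and 4-fold. Scaling to spike-ins was added after seeing the data.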

Additional observations from a re-analysis of the deposited data

Results flagged for a closer look

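IRX3 was 6.83-fold higher in RA astrocytes and at least 2.90-fold lower in FGF8 astrocytes than in neuroepithelial cells, so the astrocyte arrays lay on opposite sides, at least 4.31 apart on the log2 scale. MEIS1 lay on opposite sides as well, 2.04-fold higher after RA and 2.02-fold lower after FGF8, 2.04 apart on the log2 scale. Each drew attention because the astrocyte groups moved in opposite directions. With 1 array per group the difference was not tested. For MEIS1 the split rests on its main probe set, since the second gave -0.05 after RA, and on the scaling, since the value after FGF8 was -0.50 with array medians set equal and the value after RA was -0.28 with spike-ins set equal, which put both astrocyte arrays on the same side.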

How the results depend on the processing

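Of 190 differences of single genes recomputed under 8 other ways of processing, 174 kept their side of 2-fold, 9 fell short of it and 5 passed it. The other 2 reversed, changing sign with a value past 2-fold before or after. Both did so with spike-ins set equal: MEIS1 (-0.28) and IRX2 (-1.39) in RA astrocytes against neuroepithelial cells. Changes of sign within 2-fold count among the 174. With spike-ins set equal, MEIS2 (-0.69) changed sign in that comparison and IRX1 (-0.24) in FGF8 astrocytes against neuroepithelial cells. IRX2, MEIS2 and PBX3 did so between the astrocyte arrays. With deposited intensities, IRX1 (-0.12, FGF8) and IRX2 (-0.00, RA) did so against neuroepithelial cells. In RA astrocytes against neuroepithelial cells the count of higher genes was 7. It was 3 with a 4-fold threshold, where 6.52% of all genes passed. It was also 3 with spike-ins set equal, where 1 was lower and 4.22% of all genes were higher and 55.9% lower. Between the astrocyte arrays the count of 6 higher genes was 3 with spike-ins set equal (2.26% of all genes higher, 59.7% lower) and 4 to 8 otherwise (2.50% to 19.5% of all genes higher). In FGF8 astrocytes against neuroepithelial cells the counts are small and are given with the share of all genes. The 1 higher gene became 2 with array medians set equal (21.9%), 2 with the 30th percentile floor (14.3%), 2 with a 1.5-fold threshold (23.4%), 3 without a floor (20.0%), 0 with the 70th percentile floor (10.9%) and 0 with a 4-fold threshold (3.71%). The gene added by the 30th percentile floor was EN2, and those added without a floor were EN2 (1.36) and GBX2 (1.51). The 2 lower genes became 1 with deposited intensities (11.4%), 1 with array medians set equal (7.02%), 1 with the 70th percentile floor (8.17%) and 0 with a 4-fold threshold (3.51%). Array medians set equal moved the median of all genes in the 2 comparisons with neuroepithelial cells to 0.35 and 0.42, and the higher share of all calls from 55.4% to 70.8% (RA) and from 55.6% to 75.8% (FGF8); spike-ins set equal moved it to 7.02%, 39.2% and, between the astrocyte arrays, 3.64%. MEIS2 was not compared without _s_at probe sets, its 1 probe set being of that type, and with the 70th percentile floor GBX2 and EN1 had no difference, nor had IRX1, IRX3 and IRX5 in FGF8 astrocytes against neuroepithelial cells. The cause of these changes was not tested. Values at, below or near the floor limit EN1, EN2, GBX2, IRX3 and IRX5: between the astrocyte arrays IRX3 ranged from 2.45 to 8.07 over the alternatives.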

Other observations

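Genes that flank the listed ones in the RefSeq gene table were read as well, chosen after their values were seen. MAPKAP1, a subunit of the kinase complex mTORC2 and the neighbour of PBX3, differed by 3.12 between RA and FGF8 astrocytes, where PBX3 differed by 0.99. FTO, which flanks IRX3, differed by 0.63 in that comparison, where IRX3 differed by at least 4.31. SPRED2, an inhibitor of RAS and ERK signalling beside MEIS1, differed by -0.94, in the direction opposite to the 2.04 of MEIS1. CNPY1, which flanks EN2, was at or below the floor on all 3 arrays, as EN2 was.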
